A study of Mus musculus with 80 samples.

Results

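The lipid droplet coat was read from 8 genes, the 3 CIDE genes (Cidea, Cideb, Cidec) and the 5 perilipin genes (Plin1 to Plin5), in RNA-seq libraries of 4 mouse tissues. The genes were chosen by symbol, with earlier results of these data known, and all 8 were found among the 32764 gene rows of the count tables. With 20 libraries each, the tissues were muscle, liver, brown fat (BAT) and the white fat of the inguinal depot (iWAT). Each tissue had 4 genotypes of male mice with 5 libraries per genotype: wild type (WT), homozygous FGF21 KO, homozygous UCP1 KO, and the double knockout (dKO), which the labels write as UCP1/FGF12 double KO. All groups were raised at 30 °C on chow, moved to room temperature at 10 to 12 weeks of age and fed a high-fat diet for 3 weeks, so no chow-fed or thermoneutral mice were among them. The study's methods describe crosses of homozygous knockout lines and name no Cre or transgene. Tissue was taken after food withdrawal of 2 to 3 hours.

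Lipid droplets store triglyceride under a single layer of phospholipid, and the perilipins are the proteins that coat this layer and control access of lipases to it. Plin1 is the gatekeeper of hormone-stimulated lipolysis in fat cells, Plin2 and Plin3 coat droplets in most cell types, Plin4 is a long helical-repeat protein of fat and muscle, and Plin5 ties droplets to mitochondria in oxidative tissues. The CIDE proteins gather where droplets touch and move lipid from the smaller to the larger one: Cidec (also called FSP27) favours the single large droplet of the white fat cell, Cidea is the form of brown fat, and Cideb loads lipid onto lipoproteins in liver. UCP1 uncouples respiration to make heat in brown fat, FGF21 is a hormone of metabolic stress, and the study asked whether FGF21 is needed for the response of UCP1-deficient mice to the diet. The comparisons that carry this question are therefore UCP1 KO against WT, dKO against FGF21 KO, and UCP1 KO against dKO.

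In the GENCODE annotation of GRCm38 (release M21), Plin4 (chr17:56100591-56109803) and Plin5 (chr17:56111601-56117596) lie next to each other on the minus strand, 1797 bp apart, and Plin3 (chr17:56277476-56292873) lies 159879 bp beyond Plin5 on the same strand. Of the others, Plin1 lies at chr7:79720218-79732903, Plin2 at chr4:86648386-86670060, Cideb at chr14:55754050-55758458 and Cidec at chr6:113424634-113435760, these also on the minus strand. Cideb overlaps Nop9 on the opposite strand by 1451 bp, Cidea overlaps the transcript B430212C06Rik by 500 bp and Plin4 overlaps Hdgfl2 by 17 bp. The libraries were strand-specific, but the strand option of the counting was not given in the sources used here, so for Cideb and Cidea reads of the partner gene cannot be set apart.

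The libraries held 28691377 to 50380696 gene counts, with a median of 38022853. Fgf21 had 0 to 3 counts in every library of FGF21 KO and dKO, against 353 to 1728 in UCP1 KO BAT and 7 to 10 in WT BAT. It had 2 to 11 counts in WT iWAT, 0 to 3 in WT muscle and 0 to 10 in UCP1 KO muscle. The Fgf21 row therefore does not check the FGF21 label in muscle. The Ucp1 row was lower in UCP1 KO BAT (530 to 1238 CPM, counts scaled by library size and trimmed-mean factors) and dKO BAT (1046 to 1883 CPM) than in WT BAT (3205 to 7555 CPM) but not at 0, and in iWAT it was higher in UCP1 KO (102 to 735 CPM) than in WT (2.64 to 16.7 CPM), so this row does not check the UCP1 label there. The tissues carried their own markers, here scored as the mean of log2(CPM + 0.1) over a marker list: the hepatocyte score was 12.22 to 12.95 in liver and the skeletal muscle score 13.19 to 13.54 in muscle. A lymph node score above 4 was found in 9 of the 20 iWAT libraries (2 WT, 4 FGF21 KO, 1 UCP1 KO and 2 dKO), and a skeletal muscle score above 5 in 6 BAT and 5 iWAT libraries. The labels do not say which libraries of different tissues came from the same mouse. Replicate numbers here are only the order of the libraries within a group, so the same number in different tissues need not be the same mouse. In bulk tissue, fewer cells of a type and less RNA per cell cannot be told apart.

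Every WT tissue had its own mixture of coat genes. To compare genes with each other, CPM were divided by exonic length, and each gene was expressed as a percentage of its family in the same library. In WT BAT, Plin2 made up 34.7% ± 2.41 (SD, n = 5) of the perilipins, Plin1 27.8% ± 0.917, Plin4 19.8% ± 2.57 and Plin5 13.6% ± 1.38. In WT iWAT, Plin4 alone made up 60.3% ± 3.22 and Plin1 26.0% ± 1.6, whereas Plin5 made up 0.625% ± 0.186. Liver was a Plin2 tissue (83.0% ± 1.81), and muscle combined Plin4 (60.7% ± 6.94), Plin5 (16.1% ± 6.69) and Plin2 (13.2% ± 1.72). Plin3 was a minor member throughout WT, from 1.65% in iWAT to 7.02% in muscle. The shares depended on the length used: with the longest transcript in place of the exonic length, Plin2 in WT muscle had 21.3% and Plin5 14.8%, so their order turned.

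The CIDE family divided more sharply. Cidea held 83.5% ± 1.49 of the CIDE level per length in WT BAT and Cidec the remaining 16.4% ± 1.51. In WT iWAT the order was inverted, with Cidec at 98.1% ± 1.40 and Cidea at 1.87% ± 1.40. Liver carried Cideb at 99.1% ± 0.333. In WT muscle Cidec held 74.4% ± 14.98 and Cidea 25.3% ± 15.02, at 11.9 and 5.76 CPM per kb against 1844 CPM per kb of Cidea in WT BAT. Replicate 4 stood at 21.5 CPM per kb of Cidea. Without that library, a choice made after seeing the data, Cidea had 1.82 CPM per kb and a share of 19.8% ± 9.89 (n = 4). These shares are a description and were not tested.

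**Figure D1:**
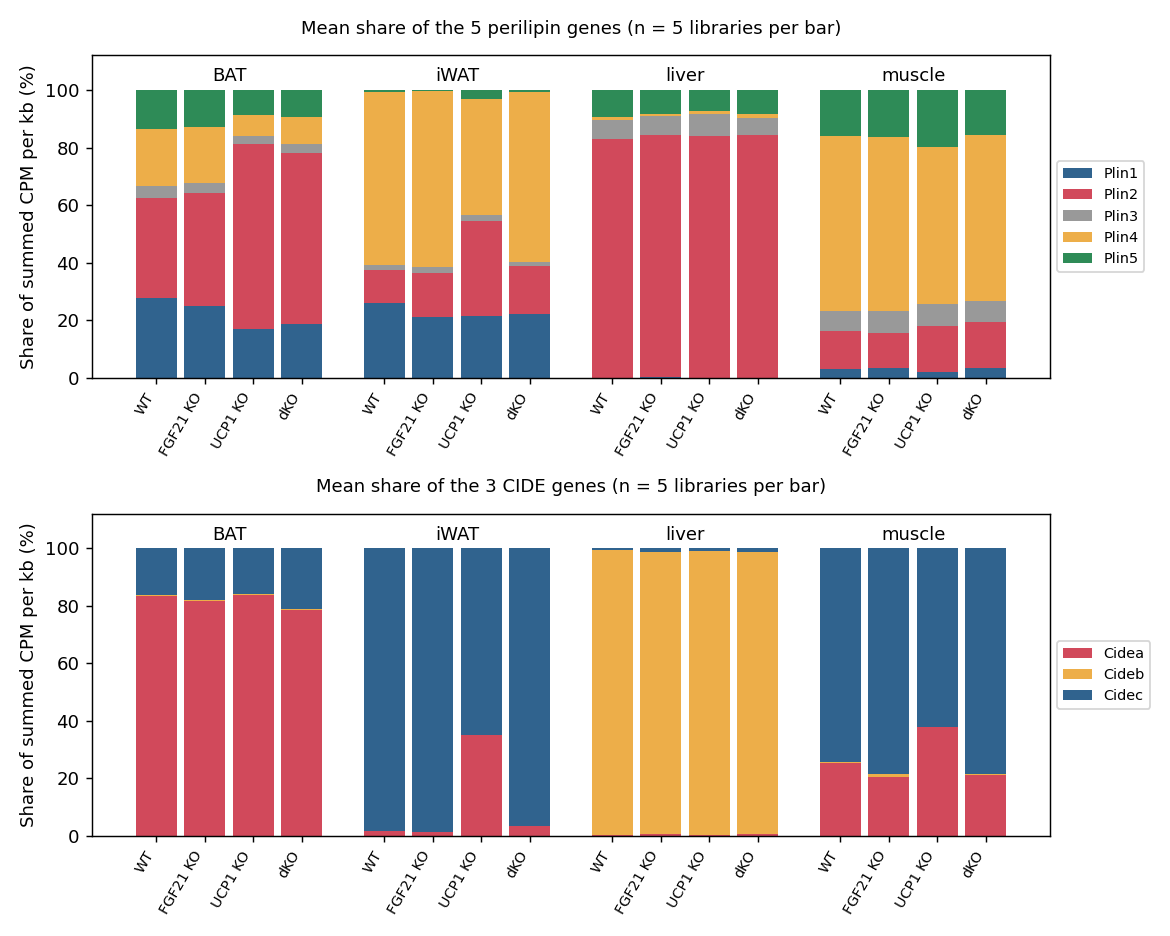
Stacked bars give each gene's mean share, in percent, of the summed CPM per kb of the 5 perilipins (upper panel) and of the 3 CIDE genes (lower panel) in the 4 genotypes of BAT, iWAT, liver and muscle, with 5 libraries per bar. In iWAT the Cidea share stands at 35.0% in UCP1 KO against 1.87% in WT and 3.41% in dKO, and in BAT the Plin2 share stands at 34.7% in WT, 59.5% in dKO and 64.5% in UCP1 KO.

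Tested across all genes in 1 edgeR fit over the 80 libraries, with calls at adjusted p under 0.01, 6 of the 8 members differed between WT BAT and WT iWAT, where 55.6% of all genes were called. Cidea was higher in BAT by 7.42 on the log2 scale (SE 0.79, adjusted p = 8.0e-13), Cideb by 4.90 (SE 0.46) and Plin5 by 4.77 (SE 0.37). Plin2 and Plin3 were higher in BAT by 1.89 and 1.63 and Plin4 was higher in iWAT by 1.40, whereas Cidec (−0.66, adjusted p = 0.11) and Plin1 (0.32, adjusted p = 0.40) did not pass. The count was 7 between BAT and liver, 8 between BAT and muscle, 8 between iWAT and liver, 5 between iWAT and muscle and 7 between liver and muscle, where 62.8%, 59.1%, 70.5%, 69.9% and 69.8% of genes were called. Plin2, the common droplet coat, was the member that did not pass between BAT and liver (0.32, adjusted p = 0.32), and Plin5 the one that did not pass between liver and muscle (0.31, adjusted p = 0.37). Between iWAT and muscle, Cidea, Cideb and Plin3 did not pass. Without WT muscle replicate 4, whose Cidea level stood apart, Cidea passed there as well (2.57, adjusted p = 0.00024). Scaling by library size alone in place of trimmed means moved these tissue differences by −0.72 for BAT against iWAT, by 1.08 for iWAT against liver and by 0.95 for iWAT against muscle on the log2 scale, and Plin3, lower in iWAT than in liver by 0.70 in the main fit, was then higher by 0.36 (adjusted p = 0.0091). By library size alone all 8 members passed between iWAT and muscle, with Cidea higher in iWAT by 1.91, Cideb by 2.06 and Plin3 by 1.21. Between BAT and iWAT Cidec then passed (−1.36, adjusted p = 0.00035), and the direction of Plin1, which did not pass under either scaling, turned, from 80.1% to 130% of the BAT level in WT iWAT. Plin2 between iWAT and liver then did not pass (−0.51, adjusted p = 0.054).

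In iWAT of UCP1 KO, Cidea, the CIDE gene of brown fat, was higher than in WT, and Plin5, Plin2 and Cideb read higher without overlap but outside the threshold. Cidea read 9.14, 19.3, 11.9, 45.6 and 9.64 CPM in the 5 WT libraries and 340.2, 184.6, 550.9, 596 and 1185 CPM in the 5 UCP1 KO libraries. Every UCP1 KO library lay above every WT library, as was so for 4 of the 8 members, where the groups of 3.83% of all genes did not overlap. The difference was 4.90 on the log2 scale (SE 0.78, 29.9-fold), and Cidea was the 1 member called (adjusted p = 0.0031 by edgeR's quasi-likelihood test), where 0.61% of all genes were called. Permuting the 10 libraries gave an exact two-sided p of 0.00794, the smallest that 5 against 5 can give. The Cidea call did not hold at 0.01 when WT replicate 1, 2, 3 or 5 was left out (adjusted p = 0.015, 0.015, 0.017 and 0.011, differences of 4.72 to 4.90). With only the WT and UCP1 KO libraries in the fit the difference was 4.90 with an adjusted p of 0.019.

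Plin5, the perilipin of droplet-mitochondria contacts, read 10.8, 14.5, 12.2, 10.6 and 10.4 CPM in WT iWAT and 48.9, 26.3, 97.1, 77.0 and 120.0 CPM in UCP1 KO iWAT. The groups did not overlap, and the lowest UCP1 KO library was replicate 2, the one with a lymph node score above 4. The difference of 2.66 (SE 0.52, 6.32-fold) fell just short of the threshold (adjusted p = 0.0106, exact permutation p = 0.00794). It passed when UCP1 KO replicate 2 (2.88, adjusted p = 0.0027), dKO replicate 1 (0.0086), FGF21 KO replicate 2 (0.0026) or FGF21 KO replicate 3 (0.0073) was left out.

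Plin2, the coat protein that droplets of most cells carry, read 460.6, 405.6, 352.5, 335.4 and 281.9 CPM in WT iWAT and 798.9, 562.8, 1698, 1682 and 2166 CPM in UCP1 KO iWAT. Again no UCP1 KO library overlapped WT, while the spread within UCP1 KO was wide. The log2 difference was 1.91 (SE 0.43, 3.76-fold, adjusted p = 0.025, exact permutation p = 0.00794), and without UCP1 KO replicate 2 it was 2.11 with an adjusted p of 0.0064.

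Cideb, the liver form, was near the bottom of detection in WT iWAT, with 4 to 18 counts per library (0.0969 to 0.388 CPM), and reached 29 to 102 counts in UCP1 KO (0.749 to 3.70 CPM). These groups did not overlap either. The log2 difference was 3.07 (SE 0.77, adjusted p = 0.041, exact permutation p = 0.00794). Without FGF21 KO replicate 4, where Cideb read 1.99 CPM beside a hepatocyte score of 7.24, the highest of the iWAT libraries, the adjusted p was 0.0047.

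The remaining coat genes of the white fat cell did not pass. Cidec ranged from 972 to 2037 CPM in WT and from 1215 to 1970 CPM in UCP1 KO (−0.10, SE 0.35). Plin1 ranged from 599.9 to 1493 CPM in WT and from 735 to 1595 CPM in UCP1 KO (−0.04, SE 0.40), and Plin4 from 1776 to 4505 and from 1890 to 3902 CPM (−0.37, SE 0.38). The groups of these 3 genes overlapped over most of their range. Plin3, found in most cells, ranged from 44.1 to 71.2 CPM in WT and from 55.7 to 94.2 CPM in UCP1 KO (0.45, SE 0.20, adjusted p = 0.28). In all, 5 of 8 members had an unadjusted p under 0.05, as did 14.7% of all genes. DESeq2 called 4 (Cidea, Cideb, Plin2 and Plin5) and 3.43% of all genes, and the median difference of the members was 1.18 against −0.03 for all genes tested.

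Expressed as shares, Cidea stood at 1.87% of the CIDE level per length in WT and at 35.0% ± 17.0 in UCP1 KO iWAT (range 18.9 to 61.8), where Cidec held 64.9% ± 17.0. Among perilipins Plin2 stood at 33.1% ± 10.7 and Plin4 at 40.7% ± 9.13, against 11.5% ± 2.58 and 60.3% ± 3.22 in WT. With the longest transcript as length, Plin2 had 42.6% and Plin4 28.9% in UCP1 KO, and 16.7% and 47.7% in WT, so the order of the 2 genes in UCP1 KO turned with the length. On the scale set across all 80 libraries, mean Cidea in UCP1 KO iWAT reached 17.7% of its WT BAT level, Plin5 23.4%, Cideb 28.1% and Plin2 102%. In WT iWAT the same percentages were 0.583% for Cidea, 3.67% for Plin5, 3.25% for Cideb and 26.9% for Plin2. By library size alone, a scaling added after seeing the data, those of UCP1 KO were 24.8% for Cidea, 32.9% for Plin5, 39.5% for Cideb and 144% for Plin2, and those of WT 0.979%, 6.04%, 5.35% and 44.1%. The markers of brown adipocytes other than Ucp1 moved with these genes: their score was 2.10 to 3.10 in WT, 4.89 to 7.56 in UCP1 KO and 1.80 to 3.86 in dKO iWAT, and 4 of its 6 genes were called higher in the UCP1 KO against WT comparison. The adipocyte score was 9.82 to 10.82 in UCP1 KO beside 9.67 to 11.02 in WT, and no lymph node, skeletal muscle or macrophage marker was called by edgeR in this comparison.

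The dKO tested whether these levels were also reached without FGF21. Cidea read 10.2, 40.9, 32.0, 68.4 and 42.3 CPM in dKO iWAT, below every UCP1 KO library, with 4 of 5 inside the WT range. No overlap was found for Cidea and Cideb of the 8 members and for 2.09% of all genes. UCP1 KO exceeded dKO by 3.88 (SE 0.74, 14.7-fold, adjusted p = 0.0112, exact permutation p = 0.00794), just outside the threshold. Plin5 read 6.62, 19.7, 9.88, 18.9 and 27.1 CPM in dKO, and only the highest of these overlapped the lowest UCP1 KO library, replicate 2. The Plin5 difference was 2.17 (SE 0.51, adjusted p = 0.032, exact permutation p = 0.0159). Cideb had 0.208 to 0.531 CPM in dKO, all below UCP1 KO, and differed by 2.71 (SE 0.76, adjusted p = 0.069, exact permutation p = 0.00794). Plin2 read 277.9, 821.9, 358.2, 631.3 and 1132 CPM in dKO, overlapped UCP1 KO, and differed by 1.10 (SE 0.42, adjusted p = 0.21, exact permutation p = 0.0714).

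Thus 0 of 8 members were called between UCP1 KO and dKO in iWAT by edgeR, where 0.466% of genes were called, while 4 had an unadjusted p under 0.05 (14.2% of genes) and DESeq2 called 3, Cidea, Cideb and Plin5 (3.08% of genes). Cidea passed in edgeR without WT replicate 4 (adjusted p = 0.0094), without UCP1 KO replicate 2 (0.0034) or without FGF21 KO replicate 2 (0.0037), and Plin5 without UCP1 KO replicate 2 (0.0081) or FGF21 KO replicate 2 (0.0093). In this comparison 3 of 6 brown adipocyte markers were called higher in UCP1 KO and no marker of the other lists was called. Their median log2 differences were 3.51 for brown adipocytes, 4.38 for skeletal muscle (scores of 1.68 to 10.54 in UCP1 KO and 1.59 to 5.68 in dKO), −0.98 for lymph node (0.15 to 7.34 and −0.43 to 7.40), −2.45 for epithelium (−2.03 to 0.28 and −2.09 to 3.17), 1.22 for hepatocytes, 0.15 for macrophages and 0.03 for adipocytes. The part of the epithelium and hepatocyte lists in the members' values was not tested. The dKO shares were 3.41% ± 1.77 for Cidea and 16.5% ± 3.78 for Plin2. Against WT, dKO had 0 called members in iWAT by edgeR and by DESeq2, and 0 members with an unadjusted p under 0.05. Of all genes 0.0173% were called there by edgeR and 0.0921% by DESeq2, 5.91% had an unadjusted p under 0.05, and the member nearest to a difference was Plin2 (0.81, SE 0.42, adjusted p = 0.87).

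No member passed the threshold between FGF21 KO and WT in iWAT. edgeR and DESeq2 called 0 of 8, with 0.00575% of all genes called by edgeR and 0.242% by DESeq2. An unadjusted p under 0.05 was found for 17.4% of genes and for 1 member, Cidec (−0.75, SE 0.35, adjusted p = 0.28). Cidea read 8.93, 30.4, 2.63, 4.54 and 4.79 CPM in these libraries. Of these 5 libraries 4 had a lymph node score above 4, and in them every member apart from Cideb of replicate 4 read lower than in replicate 2. Between dKO and FGF21 KO, 0 of 8 members were called by edgeR or DESeq2 (0.0115% of all genes by either tool), with 4 members and 8.62% of genes at an unadjusted p under 0.05: Cidea (1.92, SE 0.69), Cidec (0.95), Plin5 (1.07) and Plin2 (0.90), each with an adjusted p of 0.54. The interaction, the UCP1 KO effect with FGF21 minus that without FGF21, was called for 0 members and 0% of genes, and by DESeq2 for 0 members and 0.357% of genes. It had an unadjusted p under 0.05 for 9.98% of genes and for Cideb (3.86, SE 1.06, adjusted p = 0.23), Cidea (2.98, SE 0.96, adjusted p = 0.32) and Plin5 (1.59, SE 0.69, adjusted p = 0.45). For Cideb, FGF21 KO replicate 4 read 1.99 CPM where the mean of that group was 0.527 CPM. Cideb in dKO against FGF21 KO was −0.785 in the fit but 0.16 as a difference of mean log2 CPM. That part of its interaction thus turned with the measure.

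The ranges of the members in iWAT are given here by lymph node score. Plin1 ranged from 253 to 1041 CPM in the 9 libraries with a score above 4 and from 1066 to 1595 CPM in the other 11, with no overlap. Plin3 likewise ranged from 38.1 to 55.7 CPM against 56.3 to 94.2 CPM. Cidec (469.7 to 1694 against 1215 to 3147 CPM) and Plin4 (1062 to 2585 against 2062 to 5720 CPM) overlapped. So did Plin2 (186.6 to 562.8 against 352.5 to 2166 CPM), Plin5 (2.54 to 26.3 against 10.8 to 120 CPM), Cidea (2.62 to 184.6 against 9.14 to 1185 CPM) and Cideb (0.0772 to 1.99 against 0.202 to 3.70 CPM). These 9 libraries were defined from the data and are not a group of the study, so the ranges carry no test. The share of all genes without overlap between the 9 and the 11 libraries was not computed, so the ranges are no result about the members.

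In the 11 libraries at or under a score of 4 (3 WT, 1 FGF21 KO, 4 UCP1 KO and 3 dKO), UCP1 KO exceeded WT in 4 members: Cidea by 5.61 (adjusted p = 0.0012), Cideb by 3.29 (0.0029), Plin5 by 2.76 (0.0018) and Plin2 by 1.94 (0.0051), where 3.73% of all genes were called. In the same libraries UCP1 KO exceeded dKO in Cidea by 3.69 (0.0069), Plin5 by 1.94 (0.0078) and Cideb by 2.75 (0.0095), where 0.944% of all genes were called. The single FGF21 KO library left there is assumed to vary like the other groups. The differences of these 4 members from WT were at least as large as with all 20 libraries. Against dKO the differences of Cidea and Plin5 were smaller than with all 20 libraries (3.88 and 2.17), and that of Cideb was larger (2.71 with all 20). Without the 5 iWAT libraries of a skeletal muscle score above 5, the Cidea difference from WT was 5.54 with an adjusted p of 0.0133.

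**Figure D2:**
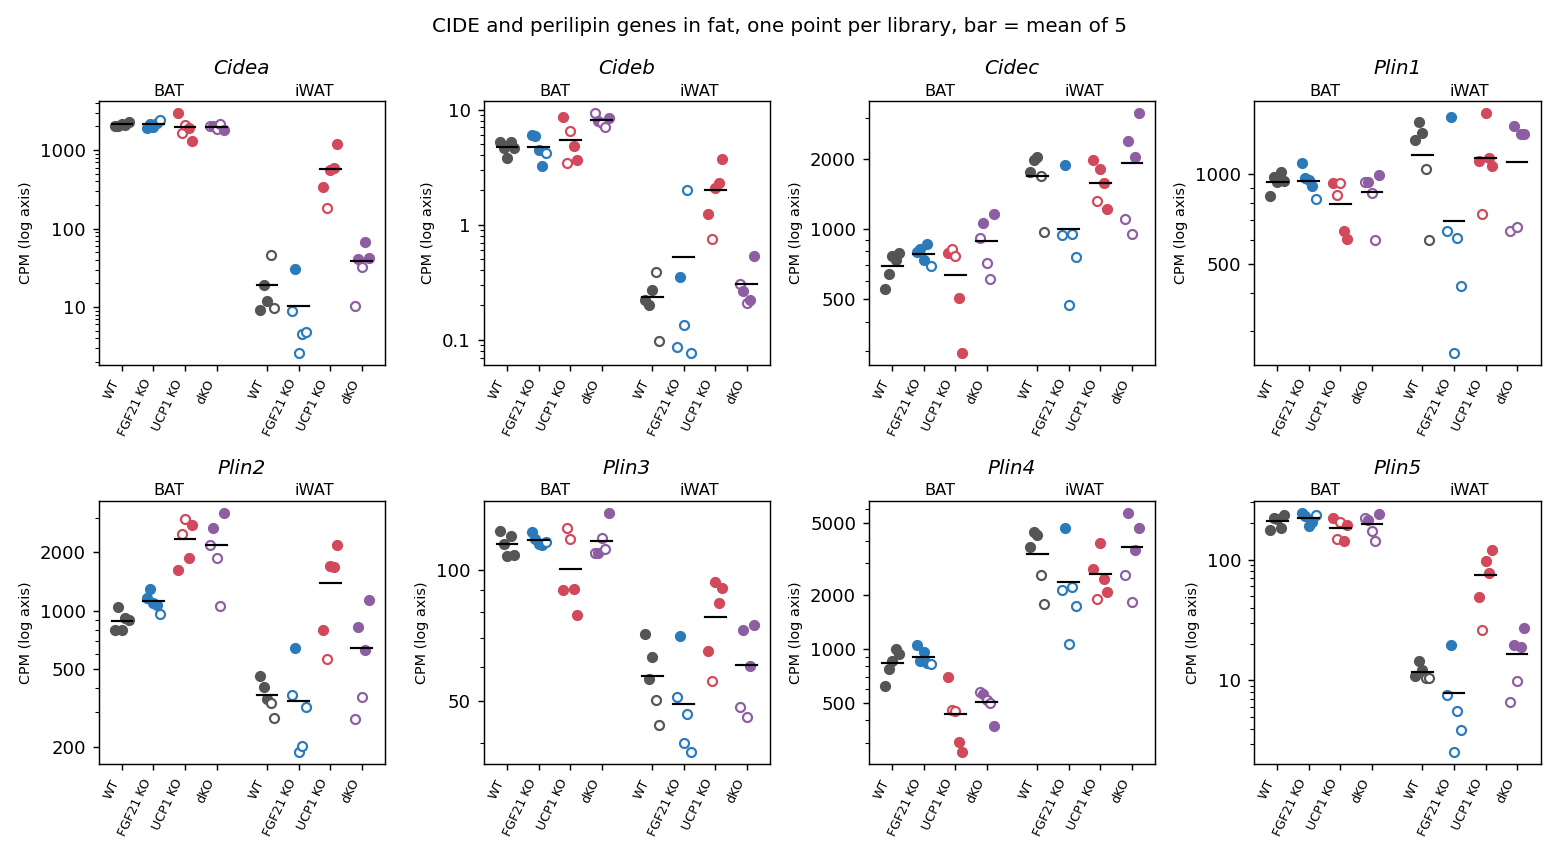
Points give CPM on a log axis for each member in each BAT and iWAT library by genotype, with 5 libraries per genotype; open circles mark iWAT libraries with a lymph node score above 4 and BAT libraries with a skeletal muscle score above 5. In iWAT the UCP1 KO points of Cidea (184.6 to 1185 CPM) stand above all WT points (9.14 to 45.6 CPM), and in BAT the UCP1 KO points of Plin2 (1613 to 2980 CPM) stand above all WT points (796 to 1039 CPM).

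In BAT of UCP1 KO, Plin2 was higher and Plin4 lower than in WT, and no CIDE gene passed. Plin2 read 796, 1039, 798.2, 912.6 and 898.8 CPM in WT and 1613, 2495, 2980, 1866 and 2761 CPM in UCP1 KO. All 5 UCP1 KO libraries lay above all WT libraries, and Plin2 was the 1 member without overlap, where 23.5% of all genes had none. The log2 difference was 1.40 (SE 0.22, 2.64-fold, adjusted p = 9.0e-05, exact permutation p = 0.00794). Plin4 moved the other way, from 616.9, 767.5, 858.4, 1003 and 937.6 CPM in WT to 691.7, 453.3, 448.8, 300.2 and 264.2 CPM in UCP1 KO. Only UCP1 KO replicate 1 overlapped the WT range. The log2 difference was −0.96 (SE 0.20, 0.516-fold, adjusted p = 0.0012, exact permutation p = 0.0159).

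Those 2 of 8 members were called by edgeR and by DESeq2, where 25.2% and 30.3% of all genes were called (48.9% at an unadjusted p under 0.05), so the share of members called was near the background. The median difference over the members was −0.16 against 0.01 for all genes. Cidea ranged from 2024 to 2285 CPM in WT and from 1326 to 2958 CPM in UCP1 KO (−0.09, SE 0.15), Cidec from 551.5 to 785 and from 293.8 to 817 CPM (−0.14, SE 0.22), and Plin5 from 176.6 to 236 and from 141.9 to 220.3 CPM (−0.20, SE 0.14). Plin1 (−0.25, SE 0.14, adjusted p = 0.15), Plin3 (−0.19, SE 0.10, adjusted p = 0.14) and Cideb (0.20, SE 0.22) did not pass either. As a share of the perilipins Plin2 stood at 64.5% ± 8.41 in UCP1 KO, Plin1 at 16.9% ± 3.57 and Plin4 at 7.46% ± 3.38.

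The marker lists of other cell types also moved in BAT. The skeletal muscle score was 1.26 to 3.28 in WT, 2.27 to 9.45 in UCP1 KO, 2.78 to 8.52 in dKO and 1.36 to 5.03 in FGF21 KO, with 5 of 10 markers called higher in UCP1 KO and 10 of 10 in dKO against WT. The macrophage score was 4.39 to 5.80 in UCP1 KO beside 3.89 to 4.16 in WT, with 4 of 5 markers called higher. The adipocyte score was 6.48 to 8.31 in UCP1 KO beside 7.85 to 8.74 in WT, with Adipoq and Cfd called lower among 6 markers. The part of the macrophage and adipocyte lists in the Plin2 and Plin4 results was not tested. Without the 6 libraries of a muscle score above 5, Plin2 was higher in UCP1 KO than in WT by 1.23 (adjusted p = 7.1e-05), Plin4 was lower by 1.00 with an adjusted p of 0.0122, and Plin3 was called lower (−0.41, adjusted p = 0.0016). With only the WT and UCP1 KO libraries in the fit, the Plin4 difference was −0.94 with an adjusted p of 0.0142.

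Plin2 and Plin4 differed in the same directions in BAT between dKO and FGF21 KO, both without FGF21. Plin2 read 2172, 2662, 1872, 1062 and 3186 CPM in dKO and 1167, 1288, 1101, 1076 and 962.9 CPM in FGF21 KO. Only dKO replicate 4 overlapped FGF21 KO. The difference was 0.97 (SE 0.22, adjusted p = 0.0032, exact permutation p = 0.0397), and it had an adjusted p of 0.0112 without dKO replicate 5 and 0.0104 without FGF21 KO replicate 5. Plin4 read 572, 561.5, 515.9, 499 and 369 CPM in dKO and 1044, 854.3, 961.4, 838.1 and 822.9 CPM in FGF21 KO, with no overlap. The Plin4 difference was −0.85 (SE 0.20, adjusted p = 0.0052, exact permutation p = 0.00794), and its adjusted p was 0.0103 to 0.0161 without dKO replicate 3 or 5 or without FGF21 KO replicate 1, 3 or 4. With the skeletal muscle score as covariate the Plin4 difference was −0.84 (adjusted p = 0.026), and without the 6 libraries of a muscle score above 5 it was −0.99 (0.044), whereas Plin2 stayed under the threshold in both (1.10 with 0.0048 and 1.34 with 0.00026). In the fit of these 2 genotypes alone the Plin2 difference was 0.98 with an adjusted p of 0.0118. Of the marker lists, 2 of 6 adipocyte markers were called lower, 1 of 5 macrophage, 1 of 7 tested lymph node and 1 of 6 brown adipocyte markers higher, and 0 of 10 muscle and 0 of 6 hepatocyte markers in dKO against FGF21 KO. The part of these lists other than muscle was not tested.

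Cideb read 9.32, 8.03, 7.66, 7.13 and 8.42 CPM in dKO BAT, 6.06, 5.86, 4.42, 3.22 and 4.22 CPM in FGF21 KO and 5.26, 4.6, 3.81, 5.27 and 4.63 CPM in WT. No dKO library overlapped either group. Members without overlap numbered 2 between dKO and FGF21 KO (Cideb and Plin4) and 3 between dKO and WT (these and Plin2), where 18.6% and 24.8% of all genes had none. Against FGF21 KO Cideb differed by 0.77 (SE 0.22, adjusted p = 0.0137, exact permutation p = 0.00794), and it passed when UCP1 KO replicate 1 (adjusted p = 0.0040), 2 (0.0073) or 5 (0.0095) was left out. DESeq2 called it together with Plin2 and Plin4, so 2 members were called by edgeR and 3 by DESeq2, where edgeR called 13.5% and DESeq2 19.5% of all genes and 40% had an unadjusted p under 0.05. The hepatocyte score was 3.73 to 4.30 in dKO BAT. In FGF21 KO it was 4.48 in replicate 1, which also had the highest Cideb of that group. The other FGF21 KO libraries had 2.86 to 3.44, below every dKO library. Between these 2 genotypes 0 of 6 markers were called, with a median log2 difference of 1.195. In WT the score was 2.79 to 3.76, with 4 of 6 markers called higher in dKO than in WT. The part of the hepatocyte list in the Cideb values was not tested.

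Against WT, dKO BAT had 3 called members by edgeR and by DESeq2, where 21.1% and 26.9% of genes were called (46.2% at an unadjusted p under 0.05). Plin2 was higher by 1.30 (SE 0.22, adjusted p = 0.00022), Plin4 was lower by 0.73 (SE 0.20, adjusted p = 0.0090) and Cideb was higher by 0.78 (SE 0.22, adjusted p = 0.0092). The calls of Plin4 and Cideb stood just inside the threshold, and each was lost in 15 of the 20 fits that left out 1 library, with adjusted p up to 0.027 and 0.026. Both were also lost with the muscle score as covariate (Plin4 −0.73 with 0.046 and Cideb 0.97 with 0.014), without the 6 libraries of a muscle score above 5, of which 3 were dKO (−0.85 with 0.056 and 0.80 with 0.039), and with no filter on low counts (−0.72 with 0.0115 and 0.79 with 0.0106), which left Plin2 as the 1 member called. Beside the muscle and hepatocyte markers, 2 of 6 adipocyte markers were called lower, and 1 of 5 macrophage and 1 of 6 brown adipocyte markers higher. This comparison shares its WT libraries with UCP1 KO against WT. Between UCP1 KO and dKO in BAT, 0 of 8 members were called by edgeR or DESeq2 (0.0636% of genes by edgeR and 0.356% by DESeq2), with 12.9% of genes and Cideb (−0.58), Cidec (−0.49) and Plin3 (−0.22) at an unadjusted p under 0.05. Between FGF21 KO and WT, 0 members were called by either tool, 0 had an unadjusted p under 0.05, and 0% of genes were called by edgeR, 0.191% by DESeq2 and 8.55% at an unadjusted p under 0.05. Plin2 was the member with the largest size of difference there (0.33, SE 0.21, adjusted p = 0.74, exact permutation p = 0.0159). The interaction was called for 0 members and 0% of genes, for 0 members and 0.00636% of genes by DESeq2, and for 0 members and 5.37% of genes at an unadjusted p under 0.05. The Plin2 share was 59.5% ± 7.11 in dKO and 39.0% ± 2.17 in FGF21 KO.

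UCP1 KO against FGF21 KO, which differ in both genes, shared its libraries with the comparisons above. In BAT, Plin2 was higher (1.07, SE 0.22, adjusted p = 0.00097) and Plin4 lower (−1.07, SE 0.20, adjusted p = 0.00059), both without overlap. These 2 members were called by both tools, where edgeR called 22.4% and DESeq2 27.6% of genes, 46.8% had an unadjusted p under 0.05 and the groups of 20.5% did not overlap. Of the marker lists, 3 of 5 macrophage markers, 1 of 7 tested lymph node markers and 1 of 6 brown adipocyte markers were called higher, 1 of 6 adipocyte and 1 of 6 brown adipocyte markers lower, and 0 of 10 muscle markers were called (median 3.68 on the log2 scale). In iWAT, Cidea (5.80, SE 0.81, adjusted p = 0.00068), Plin5 (3.24, SE 0.53, adjusted p = 0.0014) and Plin2 (2.00, SE 0.43, adjusted p = 0.0070) were higher. Both tools called 3 members there, where edgeR called 3.76% and DESeq2 9.05% of genes, and 5 members and 32% of genes had an unadjusted p under 0.05. Cidea and Plin5 did not overlap (4.02% of genes). Of the marker lists in iWAT, 5 of 6 brown adipocyte markers were called higher and no marker of the other lists was called. Median log2 differences were 4.77 for brown adipocytes, 2.32 for skeletal muscle, −1.735 for lymph node, −1.18 for hepatocytes and 0.44 for adipocytes. The part of the brown adipocyte list in these values was not tested. At a lymph node score at or under 4, where 1 FGF21 KO library was left, the iWAT differences were 4.42 for Cidea, 2.10 for Plin5 and 1.27 for Plin2, with adjusted p of 0.097, 0.114 and 0.27, and in the fit of these 2 genotypes alone 5.74, 3.17 and 1.93, with 0.025, 0.037 and 0.050.

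The test over all 4 genotypes called Plin2 (adjusted p = 6.5e-05) and Plin4 (0.00049) in BAT, where 29.7% of genes were called (53% at an unadjusted p under 0.05), and DESeq2 called 3 members and 37.9% of genes. In iWAT it called Cidea (0.00013) and Plin5 (0.0015), where 1.74% of genes were called (22.5% at an unadjusted p under 0.05), and DESeq2 called 4 members and 7.27%. In liver it called 0 members (0.34% of genes), with 3 members and 11.6% of genes at an unadjusted p under 0.05, and DESeq2 called 2 members and 1.34%. In muscle it called 0 (0.086%), with 2 members and 16.3% of genes at an unadjusted p under 0.05, and DESeq2 called 0 members and 2.4%.

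The effect of UCP1 loss differed between the fat depots for 3 of 8 members, where 10.5% of all genes were called for this difference. Cidea changed less in BAT than in iWAT by 5.03 on the log2 scale (SE 0.89, adjusted p = 2.0e-05), Plin5 by 2.88 (SE 0.46, adjusted p = 2.5e-06) and Cideb by 2.86 (SE 0.59, adjusted p = 0.00020). For Plin2, called higher in BAT and outside the threshold in iWAT, the difference between depots was −0.53 (SE 0.40, adjusted p = 0.39). For Plin4 it was −0.60 (SE 0.38, adjusted p = 0.29), and for Plin3 −0.66 (SE 0.22, adjusted p = 0.027), which passed without iWAT UCP1 KO replicate 2 (−0.77, adjusted p = 0.0071).

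Between UCP1 KO and dKO, the difference between depots was called for the same 3 members by name, Cidea (−3.89, SE 0.87, adjusted p = 0.0016), Cideb (−3.30, SE 0.57, adjusted p = 2.7e-05) and Plin5 (−2.31, SE 0.45, adjusted p = 0.00026), where 3.73% of genes were called. This contrast and the previous one share the UCP1 KO libraries. Between dKO and FGF21 KO the depots differed in 1 member, Plin4 (−1.49, SE 0.39, adjusted p = 0.0053), where 6.95% of genes were called. Plin4 was lower in dKO than in FGF21 KO in BAT by 0.85, whereas in iWAT the value was 0.64 (SE 0.38, adjusted p = 0.54).

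**Figure D3:**
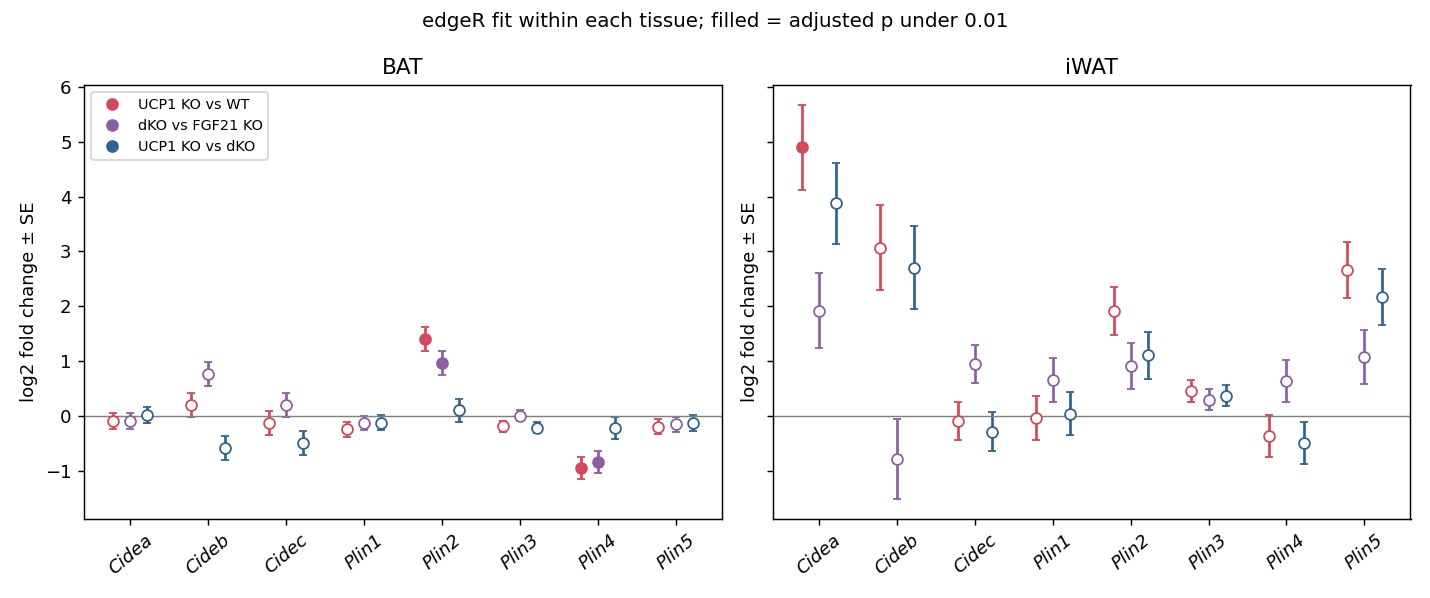
Points give the log2 fold change of each member in BAT (left) and iWAT (right) for UCP1 KO against WT, dKO against FGF21 KO and UCP1 KO against dKO, with bars of 1 SE from the fit over the 20 libraries of the tissue; filled points have an adjusted p under 0.01. In BAT, Plin2 (1.40 and 0.97) and Plin4 (−0.96 and −0.85) are filled for both losses of UCP1, and in iWAT the filled point is Cidea at 4.90.

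The promoters of Plin2 and Plin4, called in BAT, and of Plin5, whose iWAT levels in UCP1 KO lay above every WT library, are shown here because nuclear receptors, PPARs among them, are known regulators of coat genes. The windows run from 250 bases before to 50 bases after the start of transcription, are taken from RefSeq on GRCm38.p6 and are written 5′ to 3′ on the minus strand, on which all 3 genes lie. Capitals mark matches to the nuclear receptor core hexamer AGGTCA or to its direct repeat with 1 base between. The windows lie at chr4:86670010-86670309 for Plin2, chr17:56109733-56110032 for Plin4 and chr17:56117499-56117798 for Plin5.
Plin2: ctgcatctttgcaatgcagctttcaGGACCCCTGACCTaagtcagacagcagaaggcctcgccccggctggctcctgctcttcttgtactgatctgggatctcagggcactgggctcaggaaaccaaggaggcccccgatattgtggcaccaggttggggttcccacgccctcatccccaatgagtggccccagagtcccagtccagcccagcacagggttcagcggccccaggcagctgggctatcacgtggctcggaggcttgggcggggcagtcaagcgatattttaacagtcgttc
Plin4: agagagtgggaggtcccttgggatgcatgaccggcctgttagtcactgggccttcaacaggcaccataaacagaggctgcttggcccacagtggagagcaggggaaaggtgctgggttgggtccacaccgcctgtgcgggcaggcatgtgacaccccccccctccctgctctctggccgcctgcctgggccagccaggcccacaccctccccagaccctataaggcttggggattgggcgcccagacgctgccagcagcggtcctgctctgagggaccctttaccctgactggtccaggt
Plin5: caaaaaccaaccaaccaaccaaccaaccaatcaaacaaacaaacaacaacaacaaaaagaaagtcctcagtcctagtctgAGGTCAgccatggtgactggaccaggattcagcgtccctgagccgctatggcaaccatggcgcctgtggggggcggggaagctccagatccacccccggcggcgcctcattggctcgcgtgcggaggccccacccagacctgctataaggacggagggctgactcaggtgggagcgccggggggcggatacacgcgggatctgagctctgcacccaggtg

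Windows of 7 of the 8 members were searched, 9 in all, and the Cidea promoter was not analysed here. AGGTCA, searched on both strands, was present in the Plin2 window (218 bases before the start) and in both Plin5 windows (170 bases before the start in the one shown and 13 bases after it in the other). It was not present in the windows of Cideb, Cidec, Plin1, Plin3 and Plin4, and 16.3% of all 32851 windows held it. The direct repeat of the hexamer with 1 base between, allowing 2 mismatches, was found in 3.86% of all windows and among members in Plin2 alone, starting 225 bases before the start and overlapping the exact hexamer. CACGTG was found in 7.15% of windows and among members in Plin2, 4 bases before the start. TATAAA was found in 13.6% of windows and among members in Cideb, 172 bases before the start. TGACG, the core of the cyclic AMP response element, was found in 20.8% of windows and in no member window. A match describes the letters of the window and was not tested as a site.

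The other genes of droplet biology were given from lists. In BAT of UCP1 KO against WT, droplet formation genes had 1 of 9 higher and 2 lower, lipolysis genes 0 of 7 higher and 1 lower, and other surface proteins 0 of 9 tested higher and 3 lower, 7 of 25 in all beside the 25.2% of all genes called. Acsl3, which activates fatty acids on nascent droplets, was higher by 0.76 (SE 0.16, adjusted p = 0.00092). Lower were Clstn3 (−1.18, adjusted p = 0.0010), whose fat-specific form acts on droplet size, Dgat2 (−0.85, adjusted p = 0.00079), which makes triglyceride, Ldaf1 (−0.71, adjusted p = 0.00028), the partner of seipin in droplet assembly, and Cavin1 (−0.52, adjusted p = 0.00015) of caveolae. The median differences of the 3 lists were −0.02, −0.21 and −0.16, against 0.01 for all genes. In BAT of dKO against FGF21 KO, Ldaf1 (−0.55, adjusted p = 0.0039) and Cavin1 (−0.44, adjusted p = 0.0013) were lower, where 13.5% of all genes were called. No other gene of the 3 lists was called there. Against WT, dKO BAT had 3 of 9 formation genes higher and 1 lower, 0 of 7 lipolysis genes called and 2 of 9 surface genes lower, 6 of 25 in all beside the 21.1% of all genes called. Acsl3 (0.81), Agpat2 (0.78) and Fitm1 (5.25, SE 1.46, adjusted p = 0.0094) were higher, Ldaf1 (−0.76), Cavin1 (−0.59) and Hsd17b11 (−0.40) were lower, and Fitm1, a droplet-formation gene of skeletal muscle, moved in the same libraries in which 10 of 10 muscle markers were called higher. In iWAT 0 of 26 genes of these lists were called between UCP1 KO and WT or between UCP1 KO and dKO, where 0.61% and 0.466% of all genes were called.

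Among 12 transcription factors and coactivators known to act at coat gene promoters, 1 was higher and 3 were lower in UCP1 KO BAT against WT, a share near the 25.2% of all genes. Cebpa, a driver of fat cell differentiation, fell by 1.27 (SE 0.13, adjusted p = 2.0e-06), Rxra, the partner of PPARs, by 0.67 (adjusted p = 0.00023) and Ppargc1b by 0.90 (adjusted p = 0.0027), and Creb3l3 was higher by 1.22 (adjusted p = 0.0066). Against FGF21 KO, where 13.5% of all genes were called, dKO BAT had Cebpa lower by 0.91 (adjusted p = 9.8e-05), Rxra lower by 0.52 (adjusted p = 0.0031) and Creb3l3 higher by 1.24 (adjusted p = 0.0094). In iWAT of UCP1 KO against WT, where 0.61% of all genes were called, 2 of 12 were higher and 0 lower: Ppara, the PPAR of oxidative tissues, by 3.38 (SE 0.56, adjusted p = 0.0038) and Esrra by 0.92 (SE 0.14, adjusted p = 0.0020). Ppara also exceeded dKO by 3.43 (SE 0.57, adjusted p = 0.0041), the 1 of 12 called there beside 0.466% of all genes. In liver and muscle 0 of the 12 factors and 0 partner genes were called in UCP1 KO, dKO or FGF21 KO against WT, where at most 0.229% of all genes were called.

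The genes whose levels ran most like each member over the 20 libraries of a tissue are given as a description, since these libraries share genotype, depth scaling and cell mixture. In iWAT, Cidea ran with Ucp1 (Pearson r = 0.969 over 20 libraries), Vwa8 (0.964) and Acsf2 (0.964), and Plin5 with Vwa8 (0.988), Dlat (0.986) and Sucla2 (0.984), the latter both enzymes of mitochondrial fuel oxidation. Plin1 ran with Sort1 (0.988), Fgfrl1 (0.987) and the hormone-sensitive lipase gene Lipe (0.984), Plin4 with Extl3 (0.98), Slc1a5 (0.97) and Itga7 (0.969), and Cidec with Prnp (0.966), Ywhab (0.958) and Sort1 (0.957). Plin2 ran with Psmd8 (0.983), Mrps18b (0.978) and Asna1 (0.974), Plin3 with Hist1h1c (0.972), Mal2 (0.971) and Ergic1 (0.969), and Cideb with Slc27a2 (0.905), Elovl3 (0.874) and Map3k13 (0.872). In BAT the leading correlations were Plin2 with Lrrc59 (0.965), Cela1 (0.957) and Eefsec (0.957), Plin4 with Hnmt (0.932), Echdc3 (0.93) and Iah1 (0.929), Plin1 with Rnpepl1 (0.923), Snx17 (0.902) and Ccnd3 (0.897), and Cidea with Mtch2 (0.919), Ndufa12 (0.917) and Idh3b (0.899). Cidec ran with Mgll (0.917) and Mgst1 (0.901), Plin3 with Lox (0.863), Mical2 (0.863) and Stom (0.86), Cideb with Aldh7a1 (0.849), Lcorl (0.821) and Spag4 (0.807), and Plin5 with Yif1a (0.845), Pop7 (0.844) and Nr1h3 (0.839).

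In liver the main coat genes, Plin2 and Cideb, overlapped between genotypes. Plin2 read 426.6 to 585.8 CPM in WT, 529.7 to 639 in FGF21 KO, 359 to 818 in UCP1 KO and 419 to 897 in dKO. Cideb read 209 to 272, 223 to 256, 180.2 to 268 and 167.5 to 240.2 CPM in the same order. Against WT, the groups that did not overlap were Plin3 in UCP1 KO and 2 fat cell genes at trace level in FGF21 KO, where the groups of 2.07% and 1.56% of all genes did not overlap. Plin3 read 43.4, 47.2, 41.9, 41.8 and 44.2 CPM in WT and 47.3, 50.5, 59.4, 48.2 and 55.5 CPM in UCP1 KO (0.26, SE 0.08, adjusted p = 0.24, exact permutation p = 0.00794). Cidea read 0.242, 0.387, 0.285, 0.246 and 0.676 CPM in WT, and 1.27, 1.10, 0.891, 0.989 and 0.913 CPM in FGF21 KO, with no overlap. The log2 difference was 1.5 (SE 0.35, adjusted p = 0.099, exact permutation p = 0.00794). Plin1 read 0.268 to 0.483 CPM in WT and 0.560 to 1.19 CPM in FGF21 KO, again with no overlap (1.18, SE 0.24, adjusted p = 0.027, exact permutation p = 0.00794).

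edgeR called no liver member at the threshold with all 20 libraries in the fit. FGF21 KO against WT had 0 of 8 by edgeR and by DESeq2 (0.229% and 0.382% of genes), with 2 members and 7.54% of genes at an unadjusted p under 0.05. dKO against WT had 0 by edgeR and 1 by DESeq2, Cidea, where edgeR called 0.0416% and DESeq2 0.639% of genes. An unadjusted p under 0.05 was found for 12.1% of genes and 4 members: Cidea (1.61, SE 0.36, adjusted p = 0.052), Plin4 (0.97, SE 0.28), Plin1 (0.80, SE 0.25) and Cidec (0.98, SE 0.39). Cidea read 1.03, 0.366, 1.53, 1.37 and 1.30 CPM in dKO, and without replicate 2, the low one, the difference was 1.84 (adjusted p = 0.0092). UCP1 KO against WT had 0 by both tools (0.0694% and 0.777% of genes), with Plin3 as the 1 member at an unadjusted p under 0.05 (10.2% of genes). UCP1 KO against dKO had 0 by both tools (0.00694% and 0.0416% of genes), with 8.25% of genes and 5 members at an unadjusted p under 0.05, all 5 with a value below 0: Cidea (−1.37), Plin4 (−0.94), Plin1 (−0.63), Cidec (−0.82) and Plin5 (−0.36). The adipocyte score of the livers was −0.13 to 0.61 in WT, 0.09 to 1.07 in FGF21 KO, 0.16 to 0.53 in UCP1 KO and 0.48 to 1.07 in dKO, and the muscle score 1.43 to 3.52 in WT and at most 1.92 elsewhere. Their part in these values was not tested. dKO against FGF21 KO had 0 by both tools (0.00694% and 0.0902% of genes), with 6.75% of genes and Plin4 at an unadjusted p under 0.05 (0.67, SE 0.28, adjusted p = 0.70). UCP1 KO against FGF21 KO had 0 by both tools (0.0972% and 0.416% of genes), with 10.3% of genes and Cidea (−1.26, SE 0.35, adjusted p = 0.17) and Plin1 (−1.01, SE 0.24, adjusted p = 0.091) at an unadjusted p under 0.05, both without overlap (2.08% of genes). The interaction was called for 0 members by both tools (0% and 0.0625% of genes), with 5.16% of genes and Plin3 at an unadjusted p under 0.05 (0.26, SE 0.12, adjusted p = 0.95).

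In muscle Plin4, the main perilipin there, overlapped between genotypes. Plin4 read 269 to 376 CPM in WT, 238.6 to 311 in UCP1 KO, 263 to 294 in dKO and 275 to 385 in FGF21 KO. It was the member with an unadjusted p under 0.05 in UCP1 KO (−0.25, SE 0.09, adjusted p = 0.38) and in dKO against WT (−0.20, SE 0.09, adjusted p = 0.39). Plin5 ranged from 21.4 to 51.6 CPM in WT and Plin2 from 34.3 to 54.9 CPM, and both overlapped across genotypes. edgeR and DESeq2 called 0 members in the 6 pairwise muscle comparisons and the interaction, where edgeR called 0.0265% of genes in UCP1 KO, 0.0529% in dKO and 0.00662% in FGF21 KO against WT and 0% between UCP1 KO and dKO. DESeq2 called 0.172%, 0.47%, 1.27% and 0.132% of genes in the same order, and 9.81%, 12.2%, 12.9% and 11.7% had an unadjusted p under 0.05. For dKO against FGF21 KO, UCP1 KO against FGF21 KO and the interaction, edgeR called 0.0595%, 0.0265% and 0% of genes and DESeq2 0.112%, 1.26% and 0%, with 7.96%, 15.2% and 7.48% at an unadjusted p under 0.05. Members at an unadjusted p under 0.05 were Plin4 in dKO against FGF21 KO (−0.22, SE 0.09, adjusted p = 0.55), Cideb (−2.17), Cidec (−0.86) and Plin4 (−0.27) in UCP1 KO against FGF21 KO, and 0 in the interaction. In FGF21 KO against WT the member with an unadjusted p under 0.05 was Cideb (1.90, SE 0.74, adjusted p = 0.25), at 3 to 25 counts in FGF21 KO and 1 to 4 in WT, beside a hepatocyte score of 2.22 to 5.01 against 1.14 to 2.64, and between UCP1 KO and dKO it was Cidec (−0.86, SE 0.40, adjusted p = 0.41).

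Cidea in muscle stood apart in 1 library of each of 3 genotypes. Cidea lay between 0.943 and 6.67 CPM in 17 libraries and at 19.2 CPM in WT replicate 4, 17.97 CPM in UCP1 KO replicate 5 and 14.1 CPM in dKO replicate 3. These 3 libraries had brown adipocyte scores of 4.10, 4.61 and 4.61, the highest of their genotypes. FGF21 KO replicate 5 had a score of 4.19, above that of WT replicate 4, and Cidea in FGF21 KO read at most 6.67 CPM. The part of brown fat cells in these values was not tested. Plin1 spanned 2.63 to 25.8 CPM and Cidec 5.18 to 35.4 CPM over the 20 muscle libraries, beside an adipocyte score of 3.03 to 5.13.

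**Figure D4:**
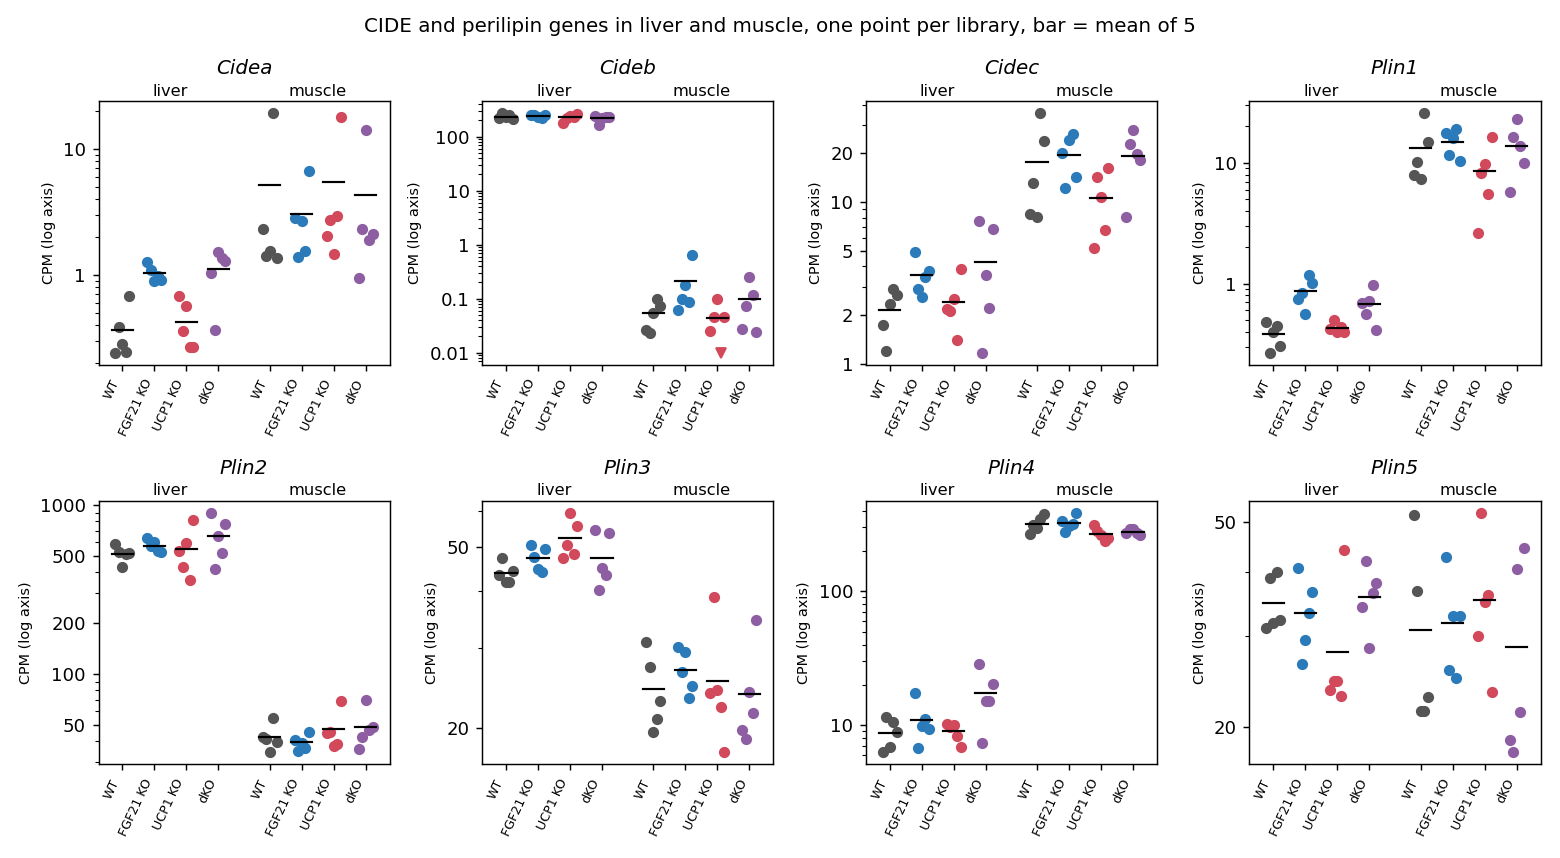
Points give CPM on a log axis for each member in each liver and muscle library by genotype, with 5 libraries per genotype; a triangle marks a library in which the gene is listed at 0. In liver the FGF21 KO points of Cidea (0.891 to 1.27 CPM) stand above the WT points (0.242 to 0.676 CPM), and in muscle 1 library each of WT, UCP1 KO and dKO stands apart for Cidea at 19.2, 17.97 and 14.1 CPM.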

How the data were processed

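The authors aligned strand-specific, poly(A)-selected paired-end reads to mm10 with STAR and counted them per gene with HTSeq, per the labels. The deposited values are whole-number read counts, not normalized, 1 table per library. A row that names no gene was left out (at most 3.42e-05% of counts). No libraries were identical. Members, lists and tests were chosen with earlier results of these data known.

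Genes were kept per tissue with a maximum above 15, a sum above 75 and at most 10 libraries at 0 (15729 genes in BAT, 17380 in iWAT, 14407 in liver and 15114 in muscle, all 8 members among them). edgeR 4.0.16 (R 4.3.3) quasi-likelihood tests with TMM factors were fitted to the 20 libraries of a tissue with 1 mean per genotype. Tissue contrasts and differences between depots came from 1 fit to all 80 libraries with 16 group means (at most 70 libraries at 0). P-values were Benjamini-Hochberg adjusted over all genes tested and called under 0.01. Single members were also tested by exact two-sided permutation of log2 CPM with a prior count of 2. CPM are TMM-scaled within a tissue; CPM per kb and percentages of BAT use the factors over 80 libraries and the union of exons. Depth, 28691377 to 50380696 counts, bounds only counting error. Whether the 5 mice of a group were independent litters is not stated, so p-values measure the spread between these samples. Named partner and factor genes are those called, up to 4 each way by adjusted p; genes of like pattern are the 3 highest Pearson correlations of log2 CPM per tissue, of which 1 is not reported here. Simulated data checked the scripts. DESeq2 1.42.0, RLE factors, library size alone, other filters and thresholds, covariates and left-out libraries were alternatives.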

Additional observations from a re-analysis of the deposited data

Results flagged for a closer look

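Among 128 groups of 5 libraries (a member in a tissue and genotype), 6 held a library whose gap to the others on the scale of log2(CPM + 0.1) passed Dixon's limit for 5 samples, while chance flags about 1 in 20 groups. Cidea in muscle stood at 19.2 CPM in WT replicate 4 (others 1.37 to 2.30) and at 17.97 CPM in UCP1 KO replicate 5 (others 1.46 to 2.92). Cideb in liver stood at 167.5 CPM in dKO replicate 2 (others 219.5 to 240.2), and Plin5 in liver at 44.2 CPM in UCP1 KO replicate 5 (others 22.9 to 24.5). Cidec in iWAT stood at 972 CPM in WT replicate 5 (others 1694 to 2037), and Plin1 in BAT at 600.3 CPM in dKO replicate 4 (others 866.7 to 989.7).

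The same contrast gave different effects in BAT and iWAT, by the test of the difference in the fit over 80 libraries, in 7 cases. For UCP1 KO against WT these were Cidea (−5.03), Plin5 (−2.88) and Cideb (−2.86), each as the BAT effect minus the iWAT effect on the log2 scale. For UCP1 KO against dKO they were Cidea (−3.89), Cideb (−3.30) and Plin5 (−2.31), and for dKO against FGF21 KO Plin4 (−1.49).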

How the results depend on the processing

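Counts of called members, of 8, were recomputed under each alternative. The share of all genes called also moved with the setting. For UCP1 KO against WT in iWAT it was 0.61% by edgeR and 3.43% by DESeq2. A changed count alone is therefore not a result about the members. UCP1 KO against WT in BAT gave 2, and 1 with only the 2 genotypes in the fit. dKO against WT in BAT gave 3, and 1 with no filter on low counts, with the skeletal muscle score as covariate or without libraries of a muscle score above 5; leaving out 1 library gave 1 to 3. dKO against FGF21 KO in BAT gave 2, 1 with the muscle covariate or without those libraries, and 0 to 3 with 1 library left out. UCP1 KO against WT in iWAT gave 1, 4 at a threshold of 0.05, 4 with DESeq2, 2 with RLE factors, 2 with the filter over 80 libraries, 0 with only the 2 genotypes, 0 without libraries of a muscle score above 5, 3 with the lymph node score as covariate, 4 with libraries at or under a lymph node score of 4, and 0 to 3 with 1 library left out. UCP1 KO against dKO in iWAT gave 0, 2 at 0.05, 3 with DESeq2, 1 with RLE factors, 2 with the lymph node covariate, 3 at or under a lymph node score of 4, and 0 to 2 with 1 library left out. UCP1 KO against FGF21 KO in iWAT gave 3, 0 with only the 2 genotypes, 1 without libraries of a muscle score above 5, 0 at or under a lymph node score of 4, and 2 to 4 with 1 library left out. The test over all 4 genotypes gave 2 in iWAT, 4 at 0.05, 4 with DESeq2 and 1 without libraries of a muscle score above 5, and 0 in liver, 2 at 0.05, 2 with DESeq2 and 0 to 1 with 1 library left out. In liver, dKO against WT gave 0, 1 with DESeq2 and 0 to 1 with 1 library left out, and FGF21 KO against WT gave 0 and 1 at 0.05. WT iWAT against muscle gave 5, and 8 by library size alone. The depot difference for dKO against FGF21 KO gave 1, and 2 at 0.05. Plin3 in iWAT against liver turned from −0.70 to 0.36 by library size alone. The cause of these changes was not tested. No paired analysis was possible because the labels do not link the tissues of a mouse. The replicate numbers used here are the order within a group and do not come from the labels. No liver library had a muscle score above 5, so that alternative was not run in liver. Counts were low for Cideb, at 0 to 25 in muscle and 4 to 18 in WT iWAT.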
